A study of Mus musculus with 18 samples.

Results

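Serotonin receptor transcripts were examined in the spinal dorsal horn (DHSC), the region that receives pain fibres from the skin. The genes are *Htr1a*, *Htr1b*, *Htr1d*, *Htr2a*, *Htr2c*, *Htr3a*, *Htr4*, *Htr5a* and *Htr7*. They were taken by name and not by a measured value, although earlier results of these data were known. These 9 genes were found among the 55573 genes of the deposited count table. All 9 passed the filter on low counts, and their lowest count in any sample was 334, for *Htr5a*.

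The tissue came from adult C57BL/6J mice, 2 h after injection of 2% formalin into a hindpaw, and was taken on the injected side. The groups were F1/proestrus females, F2/metestrus females and males, with 6 samples in each. F1 and F2 are behavioural groups with a short and a long interphase, the quiet period between the early and late pain responses, and proestrus and metestrus are stages of the estrus cycle read from vaginal smears. Every sample came from an injected mouse, so the values describe levels after formalin and not a response to it. The labels give 6 separate samples per group without saying that each is a different animal. The methods of the study give n = 6 for each group and speak of biological replicates. The p-values measure the spread between these samples.

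Serotonin reaches the dorsal horn mainly through axons of raphe neurons in the brainstem, and these descending fibres can dampen or enhance the passage of pain signals. The receptors split by what they couple to. Receptors of the 1 and 5 families act through inhibitory G proteins and lower cyclic AMP, those of the 2 family act through Gq and phospholipase C, those of the 4, 6 and 7 families act through Gs and raise cyclic AMP, and those of the 3 family are cation channels opened directly by serotonin. The cell bodies of raphe neurons, which make the enzymes of serotonin synthesis, lie outside the spinal cord, whereas the receptors are made by spinal neurons and by sensory neurons that project there.

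Between 73590509 and 125724156 reads were counted per sample. Markers of the labelled tissue were present in all 18 samples, with summed levels of 507 to 689 CPM (read counts scaled to a common library total) for 10 genes of dorsal horn excitatory neurons and 721 to 963 CPM for 9 genes of inhibitory neurons. Sample 5 of F1/proestrus stood apart, with 690 CPM over 10 markers of dorsal root ganglion neurons against 10.2 to 39.2 CPM in the other 17 samples. The numbers carried by the libraries run from 27 to 35 for replicates 1 to 3 of each group and from 188 to 196 for replicates 4 to 6, here called 2 library series, and 6709 of 24862 genes (27.0%) differed between the series. What separates the series beyond these numbers is not given in the sources used here, so both points are taken up beside the genes they touch. In bulk tissue, fewer cells of a type and less RNA per cell cannot be told apart.

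*Htr7* had the highest level of the receptors per length of transcript. Its level was 14.4 ± 0.719 CPM per kilobase of exon (SD, n = 18), which was 35.6% of the sum over the 9 genes. Its lowest sample, at 12.6, was above the highest sample of *Htr2c*, next in the order, at 7.64. *Htr2c* (5.68 ± 1.20), *Htr3a* (5.53 ± 2.02) and *Htr1a* (5.40 ± 0.446) followed at levels that did not differ beyond their spread. *Htr2c* exceeded *Htr3a* in 12 of 18 samples, and *Htr3a* exceeded *Htr1a* in 8 of 18. *Htr3a* reached 13.2 CPM per kilobase in F1/proestrus sample 5, which was above the lowest sample of *Htr7*. Without sample 5 the mean of *Htr3a* went from 11.5 to 10.6 CPM, and per kilobase it was then below that of *Htr1a*.

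*Htr2a* came next at 3.12 ± 0.461 CPM per kilobase and was below *Htr1a* in all 18 samples. *Htr1b* (2.14 ± 0.516) and *Htr1d* (1.92 ± 0.469) overlapped, with *Htr1b* higher in 10 of 18 samples. *Htr4* (1.28 ± 0.137) and *Htr5a* (0.965 ± 0.112) were the lowest, and *Htr4* exceeded *Htr5a* within each of the 18 samples although their ranges overlapped. The order over all 18 samples was the same when the longest transcript replaced the union of exons, but the gaps were not. The annotated exons of *Htr2c* span 9328 bases and its longest transcript 4883, so that its mean was then at 10.8 CPM per kilobase, and its highest sample, at 14.6, was above the lowest sample of *Htr7*, at 13.6.

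**Figure D1:**
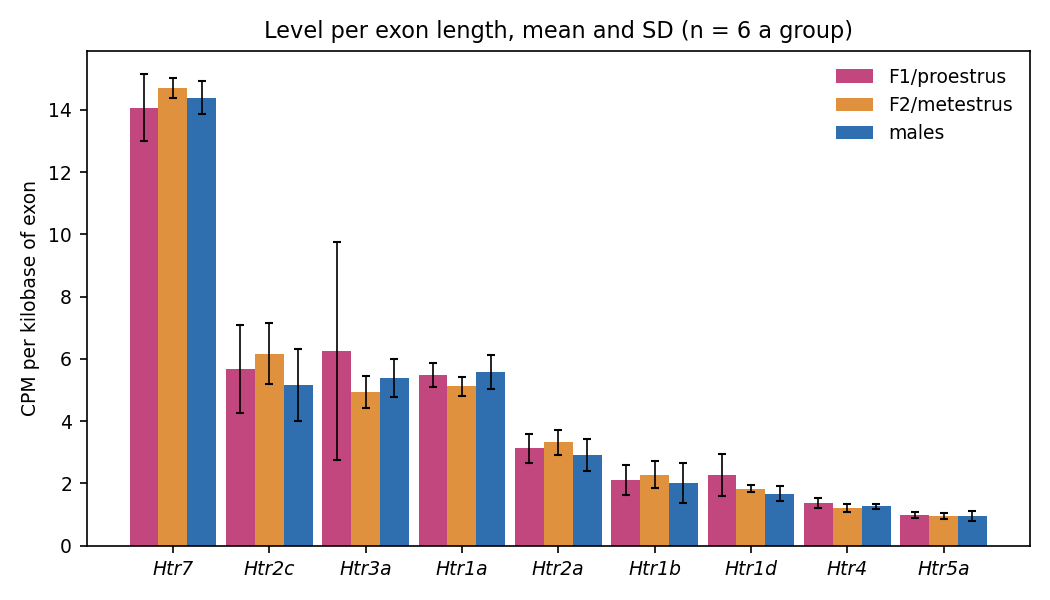
Level of each receptor gene in CPM per kilobase of exon (vertical axis, starting at 0), with bars for the mean and whiskers for the SD of the 6 samples of each group. *Htr7* stands above the other genes in every group, and the wide whisker of *Htr3a* in F1/proestrus comes with sample 5, at 13.2 CPM per kilobase.

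Of the other receptor genes, *Htr5b* was at 1.59 ± 0.392 CPM per kilobase (SD, n = 18), between the means of *Htr1d* and *Htr4*. The remaining 4 had means below that of *Htr5a*, with *Htr6* at 0.536 ± 0.136 and *Htr1f* at 0.463 ± 0.115. *Htr3b*, the subunit that joins *Htr3a* in mixed channels, was at 0.119 ± 0.143, and *Htr2b* was at 0.0439 ± 0.0255 with as few as 2 counts in a sample.

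The first comparison asked whether the sexes differ, with all 12 females as a single condition. With edgeR (quasi-likelihood, FDR of 5%), none of the 9 receptor genes passed, and the fit called 49 of 24862 genes (0.197%). *Htr1d* was the only receptor gene with an unadjusted p under 0.05 in this test, and DESeq2 also called 0 of 9. The log2 fold changes of males against females ran from -0.29 to 0.08, with a median of -0.05 for the 9 genes and -0.0013 for all genes tested. No receptor gene separated the sexes without overlap, which 0.121% of all genes did. Summed microglia markers were at 330 to 360 CPM in males and 295 to 338 CPM in females, and their part in the receptor values was not tested.

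The second comparison asked whether the female groups differ. None of the 9 genes passed the same test between F2/metestrus and F1/proestrus, which called 0 of 24042 genes (0.0%). Of all genes, 596 had an unadjusted p under 0.05, and DESeq2 called 2. No receptor gene had an unadjusted p under 0.05 in edgeR, and DESeq2 called 0 of the receptor genes. No receptor gene separated the female groups without overlap, which 0.112% of all genes did. The log2 fold changes of F2/metestrus against F1/proestrus ran from -0.35 to 0.12. Males were also set against each female group, where 0 of 9 genes passed against F1/proestrus (0.0925% of all genes passed) and 0 of 9 against F2/metestrus (0.129%). These comparisons share the male samples, and each is read on its own below.

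**Figure D2:**
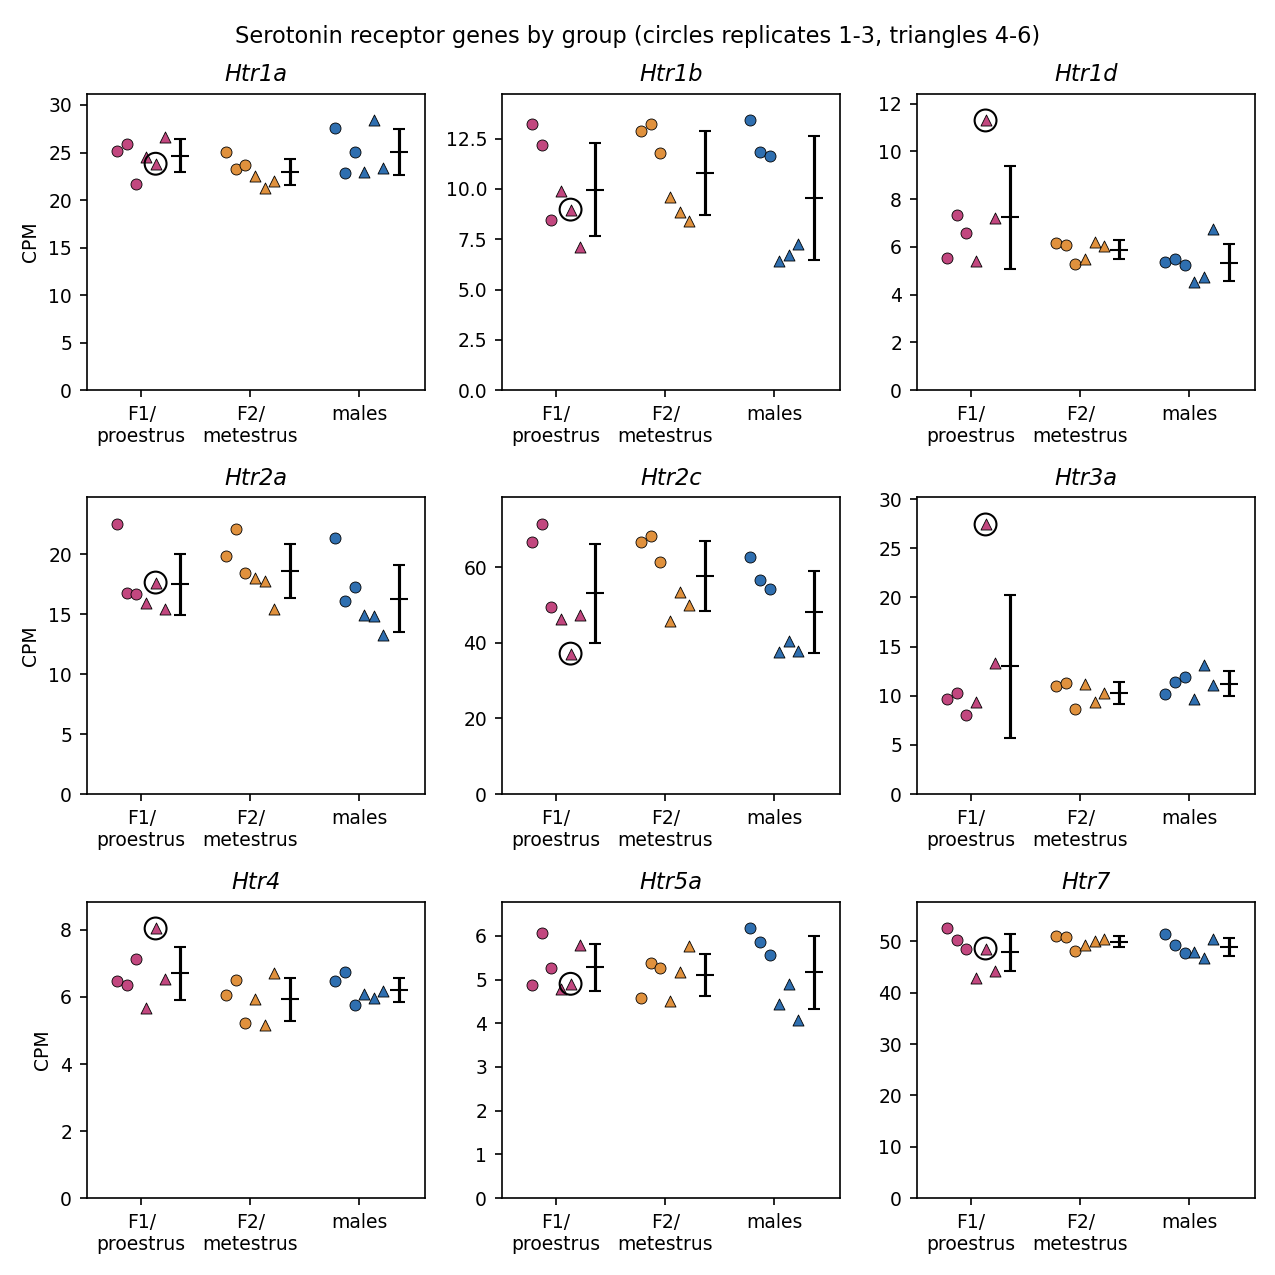
CPM of the 9 receptor genes in each of the 18 samples by group (vertical axes start at 0), with circles for replicates 1 to 3, triangles for replicates 4 to 6, a ring around F1/proestrus sample 5, and the mean and SD of each group at its right. The groups overlap for every gene, the triangles of *Htr1b* and *Htr2c* lie mostly below the circles, and the ringed sample is the highest for *Htr1d*, *Htr3a* and *Htr4*.

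**Figure D3:**
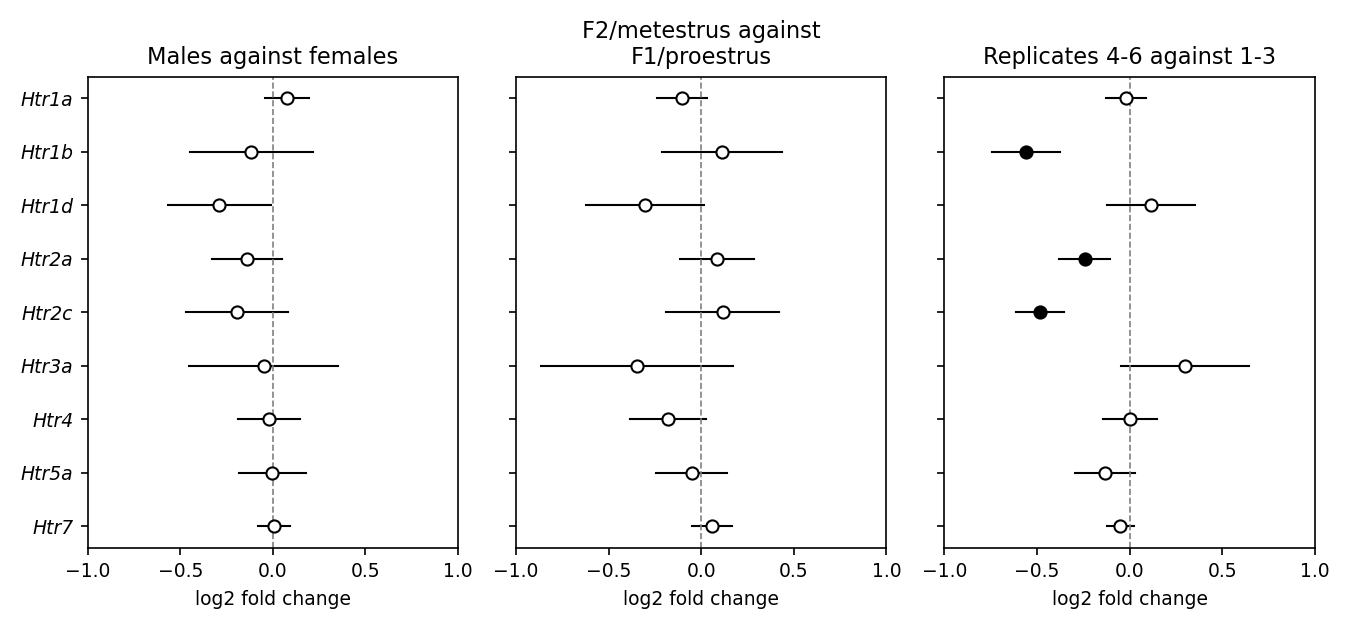
Log2 fold change (horizontal axis) of each receptor gene for males against females, F2/metestrus against F1/proestrus, and replicates 4 to 6 against 1 to 3, with lines for the 95% confidence interval. Filled points passed an FDR of 5%, which only *Htr1b*, *Htr2a* and *Htr2c* did, and only between replicates 4 to 6 and 1 to 3.

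Among the receptors coupled to inhibitory G proteins, *Htr1a* (chr13:105443639-105448122, plus strand) encodes the receptor that serves raphe neurons as an autoreceptor and is also found on target neurons. Its level, in CPM, was 21.7 at the lowest, 24.9 at the median and 26.7 at the highest in F1/proestrus. The corresponding values were 21.3, 22.9 and 25.0 in F2/metestrus, and 22.9, 24.2 and 28.4 in males. The 3 ranges lay over each other. Males against females gave a log2 fold change of 0.08 (SE 0.0578, adjusted p = 0.668, edgeR) and F2/metestrus against F1/proestrus one of -0.10 (SE 0.0624, adjusted p = 1).

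*Htr1b* (chr9:81628291-81633828, minus strand) encodes a receptor that sits on axon terminals and limits transmitter release. It had 7.11 to 13.2 CPM in F1/proestrus with a median of 9.44, 8.41 to 13.2 in F2/metestrus with a median of 10.7, and 6.42 to 13.4 in males with a median of 9.45. The groups overlapped over almost their whole range. The log2 fold change between the sexes was -0.12 (SE 0.160, adjusted p = 0.829) and that between the female groups 0.11 (SE 0.151, adjusted p = 1).

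The wide spread of *Htr1b* within groups followed the library series. In males, replicates 1 to 3 had 11.6 to 13.4 CPM and replicates 4 to 6 had 6.42 to 7.28 CPM, without overlap. The same split held in males for 4 of the 9 receptor genes, *Htr1b*, *Htr2a*, *Htr2c* and *Htr5a*, and for 26.5% of all genes in either direction. In females, the ranges were 8.46 to 13.2 and 7.11 to 9.90 CPM, which overlapped through F1/proestrus sample 3. Within replicates 1 to 3 the log2 fold change of males against females was 0.03 (SE 0.121), and within replicates 4 to 6 it was -0.36 (SE 0.110, unadjusted p = 0.00627, adjusted p = 0.310). The difference between the 2 values was -0.41 (SE 0.165, unadjusted p = 0.0216), which did not pass the adjustment over all genes (adjusted p = 0.964).

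*Htr1d* (chr4:136423524-136444398, plus strand), a target of the triptan drugs like *Htr1b*, had the smallest p of the 9 genes between the sexes. Its level was 5.40 to 11.3 CPM in F1/proestrus with a median of 6.91, 5.28 to 6.22 in F2/metestrus with a median of 6.05, and 4.52 to 6.74 in males with a median of 5.29. Male 6, at 6.74 CPM, was the only male above the female median of 6.12 CPM, and the groups overlapped. The log2 fold change between males and females was -0.29 (95% interval -0.57 to -0.0098, unadjusted p = 0.0432, adjusted p = 0.504).

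Against F1/proestrus alone, males had a log2 fold change in *Htr1d* of -0.43 (SE 0.142, unadjusted p = 0.00627, adjusted p = 0.565), and against F2/metestrus one of -0.13 (SE 0.142, adjusted p = 0.832). F1/proestrus sample 5, the sample with ganglion markers, had the highest *Htr1d* level at 11.3 CPM against 4.52 to 7.36 in the other 17. Without it the log2 fold change of males against females was -0.19 (SE 0.0896, adjusted p = 0.512) and that of males against F1/proestrus -0.27 (SE 0.105, adjusted p = 0.676). That of F2/metestrus against F1/proestrus went from -0.31 (SE 0.149) to -0.13 (SE 0.0969) without this sample. With the mean log2 CPM of the ganglion markers as covariate (the ganglion score), males against females gave -0.18 (SE 0.0925, adjusted p = 0.5845). F2/metestrus against F1/proestrus then gave -0.15 (SE 0.0971). The part of ganglion tissue in these values was not tested further.

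*Htr5a* (chr5:27842149-27855088, plus strand) encodes an inhibitory receptor confined largely to the nervous system. Its level was 4.79 to 6.06 CPM in F1/proestrus, 4.52 to 5.77 in F2/metestrus and 4.07 to 6.17 in males, with medians of 5.08, 5.21 and 5.23. The sexes had a log2 fold change of -0.0030 (SE 0.0869, adjusted p = 0.994). Among males alone the library series did not overlap, as for 26.5% of all genes, at 5.56 to 6.17 CPM for replicates 1 to 3 and 4.07 to 4.90 CPM for replicates 4 to 6, whereas the females of the series overlapped at 4.57 to 6.06 and 4.52 to 5.79 CPM. The log2 fold change between the sexes was thus 0.15 (SE 0.0948) within replicates 1 to 3 and -0.20 (SE 0.114) within replicates 4 to 6, and the difference of -0.37 (SE 0.143, unadjusted p = 0.0178) did not pass the adjustment over all genes (adjusted p = 0.964).

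Both Gq-coupled receptors varied with the library series and not detectably with group. *Htr2c* (chrX:146962513-147197277, plus strand) encodes a receptor whose transcript is edited by ADAR enzymes and which is prominent in spinal neurons. It had 37.1 to 71.3 CPM in F1/proestrus with a median of 48.4, 45.8 to 68.3 in F2/metestrus with a median of 57.4, and 37.7 to 62.6 in males with a median of 47.3. All 3 ranges overlapped. Between males and females the log2 fold change was -0.19 (SE 0.132, unadjusted p = 0.160, adjusted p = 0.638), and between F2/metestrus and F1/proestrus it was 0.12 (SE 0.143, adjusted p = 1).

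The male values of *Htr2c* were then read within each library series. Replicates 1 to 3 had 54.2 to 62.6 CPM in males and 49.4 to 71.3 in females, and replicates 4 to 6 had 37.7 to 40.5 CPM in males and 37.1 to 53.4 in females. In the latter, 5 of the 6 females were above every male, and the exception was F1/proestrus sample 5 with 37.1 CPM. The log2 fold change between the sexes was -0.16 (SE 0.0962) within replicates 1 to 3 and -0.26 (SE 0.0933) within replicates 4 to 6. With the series as a covariate it was -0.20 (SE 0.0694, unadjusted p = 0.00824, adjusted p = 0.154), and when F1/proestrus sample 5 was also left out it was -0.23 (SE 0.0611, unadjusted p = 0.00126, adjusted p = 0.0817). The last fit was chosen after the data had been seen, and neither passed an FDR of 5%.

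*Htr2a* (chr14:74640840-74709494, plus strand) encodes the Gq-coupled receptor found on motor and dorsal horn neurons as well as on primary afferents. Its level was 15.5 to 22.5 CPM in F1/proestrus with a median of 16.7, 15.4 to 22.1 in F2/metestrus with a median of 18.3, and 13.3 to 21.4 in males with a median of 15.5. In F1/proestrus, sample 1 was the highest at 22.5 CPM and the next sample was at 17.7. Between the sexes the log2 fold change was -0.14 (SE 0.0910, adjusted p = 0.608) and 0.09 (SE 0.0946, adjusted p = 1) between the female groups.

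Within the library series, the *Htr2a* levels of the sexes overlapped in replicates 1 to 3, at 16.1 to 21.4 CPM in males and 16.7 to 22.5 in females. In replicates 4 to 6 they did not, at 13.3 to 14.96 CPM in males and 15.4 to 18.1 in females, a separation that 5.11% of all genes showed. The log2 fold change of males against females in *Htr2a* was -0.09 (SE 0.113, adjusted p = 0.852) within replicates 1 to 3 and -0.21 (SE 0.0821, unadjusted p = 0.0249, adjusted p = 0.377) within replicates 4 to 6. With the series as a covariate it was -0.15 (SE 0.0707, unadjusted p = 0.0495, adjusted p = 0.304), which did not pass an FDR of 5%.

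The only calls among the receptor genes were between the library series. Replicates 4 to 6 were lower than replicates 1 to 3 in *Htr1b* (log2 fold change -0.56, SE 0.0872, adjusted p = 9.21e-05), *Htr2c* (-0.48, SE 0.0625, adjusted p = 1.38e-05) and *Htr2a* (-0.24, SE 0.0663, adjusted p = 0.00987). They were 3 of 9 receptor genes, beside 13.0% of all genes called lower. The levels were 8.46 to 13.4 against 6.42 to 9.90 CPM for *Htr1b*, 49.4 to 71.3 against 37.1 to 53.4 CPM for *Htr2c*, and 16.1 to 22.5 against 13.3 to 18.1 CPM for *Htr2a*, so the series overlapped in each gene, as they did for the other receptors (4.2% of all genes did not overlap). Calls of these 3 genes remained under every alternative tried, with adjusted p up to 0.0347 for *Htr2a* when single samples were left out.

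The remaining 6 genes did not pass between the series, with log2 fold changes from -0.13 for *Htr5a* to 0.30 for *Htr3a*. The median over the 9 genes was -0.05 and that over all genes 0.0024. Summed dorsal horn inhibitory markers were also at 721 to 858 CPM in replicates 4 to 6 against 815 to 963 in replicates 1 to 3, while excitatory markers were at 555 to 689 against 507 to 583 CPM. *Htr2a* and *Htr2c* fell in the GC class (transcripts ranked into 10 equal classes by GC content) in which 17.7% of genes were called lower, and *Htr1b* in a class with 17.3%. The part of cell content or base composition in these calls was not tested.

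The sequences upstream of the 3 genes that moved together between the series are shown for reference, from RefSeq (GRCm38.p6), which matched 7 of the 9 genes. Each run is read 5′ to 3′ on the strand of the gene and ends before the annotated start of transcription. Capitals mark motif matches, searched on both strands. The motifs were the GC box, spelled GGGCGG, and the CCAAT box, whose letters are its name. The core of the cyclic AMP response element was spelled TGACG. The TATA box was spelled with the letters TATAAA. No marked matches overlap.
Htr1b, chr9:81633833-81634082, minus strand: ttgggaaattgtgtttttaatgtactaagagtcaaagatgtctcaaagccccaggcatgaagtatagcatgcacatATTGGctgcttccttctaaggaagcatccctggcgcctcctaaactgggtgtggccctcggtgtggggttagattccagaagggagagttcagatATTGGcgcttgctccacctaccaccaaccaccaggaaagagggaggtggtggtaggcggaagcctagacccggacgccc
Htr2a, chr14:74640624-74640839, plus strand: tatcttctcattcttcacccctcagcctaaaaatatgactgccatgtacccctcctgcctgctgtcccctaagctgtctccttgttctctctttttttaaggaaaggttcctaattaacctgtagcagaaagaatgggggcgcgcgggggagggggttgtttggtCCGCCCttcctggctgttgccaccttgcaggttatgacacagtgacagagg
Htr2c, chrX:146962263-146962512, plus strand: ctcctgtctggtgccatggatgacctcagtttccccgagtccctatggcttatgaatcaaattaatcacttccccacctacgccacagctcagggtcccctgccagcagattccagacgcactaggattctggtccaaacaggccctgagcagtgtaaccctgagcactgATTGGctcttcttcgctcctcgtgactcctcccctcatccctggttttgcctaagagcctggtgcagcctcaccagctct
The window of *Htr1b* held 2 CCAAT boxes and that of *Htr2c* held 1, all on the opposite strand (ATTGG), and that of *Htr2a* held 1 GC box. None of the 3 windows held a TATA box or a TGACG core. Of 32851 RefSeq promoter windows of up to 250 bases, 33.8% held a CCAAT box, 32.7% a GC box, 17.8% the TGACG core and 12.4% a TATA box, so the matches are common ones.

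*Htr1b* shares part of its position with *D430036J16Rik* on the opposite strand, which had 232 to 641 counts per sample and also fell between the series (log2 fold change -0.51, SE 0.0967, adjusted p = 0.000558). Whether the counting used the strand is not given in the sources used here, so reads of the 2 genes cannot be told apart where they overlap. The span of *Htr2c* holds 8 small RNA genes on the same strand.

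*Htr3a* (chr9:48899213-48911099, minus strand) encodes the subunit that every channel of the 3 family needs and is known in excitatory terminals and in sensory neurons. Its level was 8.01 to 27.4 CPM in F1/proestrus with a median of 9.98, 8.64 to 11.3 in F2/metestrus with a median of 10.6, and 9.66 to 13.1 in males with a median of 11.2. The top of the F1/proestrus range was sample 5 at 27.4 CPM, and the next sample in that group had 13.3 CPM. Males differed from females by a log2 fold change of -0.05 (SE 0.193, adjusted p = 0.944) and F2/metestrus from F1/proestrus by -0.35 (SE 0.243, adjusted p = 1). Without sample 5 these became 0.14 (SE 0.0901, adjusted p = 0.622) and 0.02 (SE 0.115), so that the direction of both rested on that sample.

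In F1/proestrus sample 5 the receptors stood at different places relative to the other samples. *Htr3a* was at 2.66 times the median of the other 17 samples, *Htr1d* at 2.04 times and *Htr4* at 1.30 times, and each was the highest of the 18 samples. *Htr3b*, which is expressed with *Htr3a* in sensory neurons, had 1.62 CPM against 0.0546 to 0.329, or 7.63 times the median of the others, and *Htr1f* had 1.96 CPM against 0.635 to 1.61. *Htr7* at 48.6 CPM and *Htr1a* at 23.8 CPM were close to the medians of the others, at 49.4 and 23.7. *Htr2c* was the lowest of the 18 samples in it, at 37.1 CPM.

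The same sample held transcripts that define dorsal root ganglion neurons, several of which were nearly missing elsewhere. *Avil*, which marks sensory neurons, was at 133 CPM against at most 0.908 in the other samples, and *Scn10a*, the sodium channel of nociceptors, was at 125 CPM against at most 0.153. *Mrgprd*, a receptor of non-peptidergic nociceptors, was at 32.9 CPM against at most 0.0446. All 10 genes of the ganglion list were higher in it than in any other sample. Summed markers of ventral horn and motor neurons were at 322 CPM in it against 23.1 to 189. Much of that sum came from 1 gene, since the highest mean of a single gene of that list in F1/proestrus was 60.2 CPM with sample 5 and 32.5 CPM without it. Whether the sum reflects ventral horn tissue was not tested. The part of ganglion RNA in the receptor levels of sample 5 was not tested beyond the fits without the sample and those with the ganglion score as covariate.

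**Figure D4:**
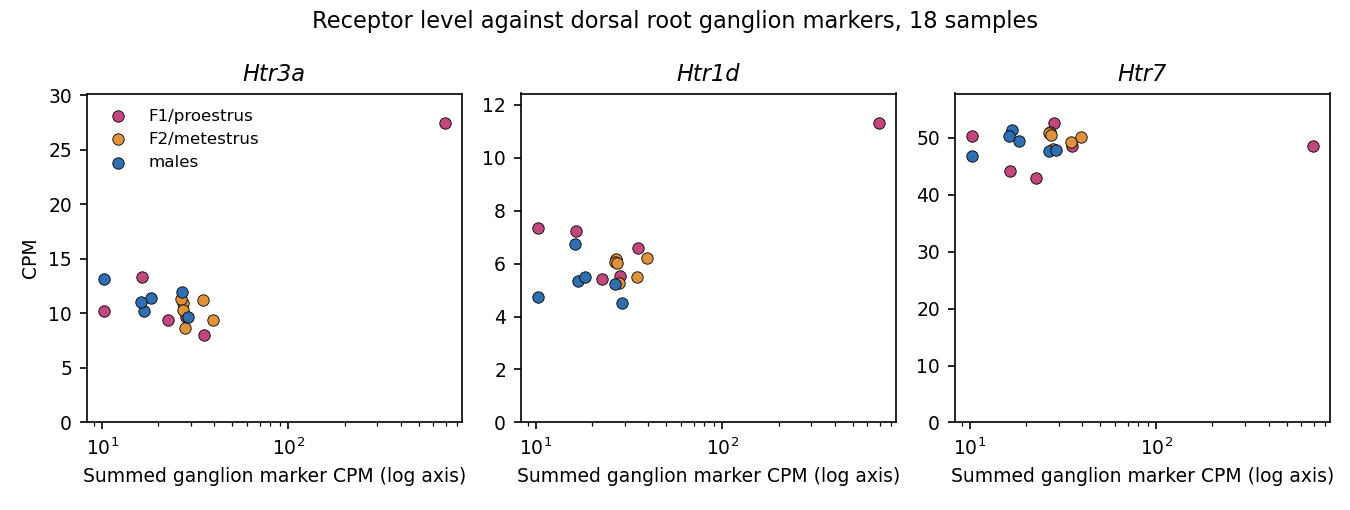
CPM of *Htr3a*, *Htr1d* and *Htr7* (vertical axes, starting at 0) against the summed CPM of 10 dorsal root ganglion markers (horizontal log axis) in the 18 samples, coloured by group. F1/proestrus sample 5, at 690 CPM of markers, is the highest for *Htr3a* and *Htr1d* and within the range of the others for *Htr7*.

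Of the Gs-coupled receptors, *Htr7* (chr19:35958734-36057507, minus strand) had 43.0 to 52.5 CPM in F1/proestrus with a median of 48.6, 48.1 to 51.0 in F2/metestrus with a median of 50.3, and 46.7 to 51.5 in males with a median of 48.7. Its coefficient of variation over the 18 samples was 5.0%, against 8.26% for *Htr1a* to 36.5% for *Htr3a* among the other genes. Without F1/proestrus sample 5 that of *Htr3a* was 13.6%, and the highest was then 24.6% for *Htr1b*. The log2 fold change between the sexes was 0.0058 with a 95% interval of -0.08 to 0.09, and between the female groups 0.06 with an interval of -0.05 to 0.17. These intervals were the narrowest of the 9 genes.

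*Htr4*, on chromosome 18, had 5.68 to 8.04 CPM in F1/proestrus with a median of 6.50, 5.16 to 6.73 in F2/metestrus with a median of 5.99, and 5.76 to 6.75 in males with a median of 6.14. Sample 5 was again the highest of F1/proestrus. For the sexes the log2 fold change was -0.02 (SE 0.0804, adjusted p = 0.947) and -0.18 (SE 0.0958, unadjusted p = 0.0818, adjusted p = 1) for F2/metestrus against F1/proestrus, and the latter was -0.12 (SE 0.0895) without sample 5.

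Over the 18 samples the receptors that fell between the series varied together. Spearman's rho of log2 CPM was 0.83 for *Htr1b* with *Htr2a*, 0.83 for *Htr1b* with *Htr2c* and 0.67 for *Htr2a* with *Htr2c*. Within replicates 1 to 3 the values for these pairs were 0.75, 0.72 and 0.55 (9 samples), and within replicates 4 to 6 they were 0.73, 0.22 and 0.32. *Htr7* went with *Htr1b* at 0.87 within replicates 1 to 3 and at 0.033 within replicates 4 to 6. These are descriptions, since the samples share library series and tissue content.

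Genes with the pattern most like a receptor over the 18 samples were sought among 17761 genes by Spearman's rho. *Htr2c* was most like *Adnp* and *Mkl2* (rho 0.95 for both), *Htr1b* like *Dcbld2* (0.94), and *Htr2a* like *Tgoln1* (0.91). These receptors were also the ones called between the library series, and the search was not repeated within each series. For the other receptors the highest values were lower. *Htr3a* was most like *AC154412.1* (0.84), *Htr7* like *Npnt* (0.83), *Htr1a* like *Rassf3* (0.82), *Htr5a* like *Cacna1e* and *Gm10308* (0.82), *Htr1d* like *Npy2r* (0.79), and *Htr4* like *Srrm4* and *Plxna4os3* (0.77).

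Of the 5 other serotonin receptor genes, 0 of 5 passed between the sexes and 0 of 4 tested between the female groups. *Htr1f* had the smallest p between the sexes, at 0.635 to 1.12 CPM in males and 0.991 to 1.96 in females (log2 fold change -0.41, SE 0.150, unadjusted p = 0.0120, adjusted p = 0.375). *Htr5b*, which had the highest CPM of the list, was at 2.77 to 4.23 CPM in males and 1.64 to 3.80 in females (0.40, SE 0.152, unadjusted p = 0.0148, adjusted p = 0.388). *Htr3b* had the smallest p between the female groups (-0.89, SE 0.594, adjusted p = 1). F1/proestrus sample 5 had 1.62 CPM of *Htr3b* against 0.0546 to 0.329 in the other 17 samples. The same sample was the top of the female range of *Htr1f*, and the others had at most 1.61 CPM. Values of these 2 genes without sample 5 are not given here. Between the library series, *Htr5b* (0.39, adjusted p = 0.0119) and *Htr6* (0.42, adjusted p = 0.0298) were higher in replicates 4 to 6, beside 14.0% of all genes called higher, and 1 of these 2 calls was lost without a filter on low counts or without any of 7 single samples.

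Genes that mark raphe neurons were read next. *Tph2*, the rate-limiting enzyme of raphe neurons, was at 0.477 to 1.54 CPM, *Slc6a4*, the serotonin transporter, at 0.0186 to 0.294 CPM, and *Fev*, a transcription factor of raphe neurons, at 0.0711 to 0.457 CPM, whereas *Ddc*, a decarboxylase also used by other cells, was at 13.0 to 22.1 CPM. Of 16 genes of synthesis, transport and breakdown, 15 were tested, and 0 of 15 passed between the sexes or between the female groups. *Slc18a2*, the vesicular monoamine transporter, had the smallest p between the sexes (-0.34, SE 0.141, adjusted p = 0.429), and *Maoa*, which breaks down serotonin, between the female groups (0.11, SE 0.0541, adjusted p = 1). Between the series, *Pcbd1* (0.30, adjusted p = 0.000668), *Spr* (0.17, adjusted p = 0.00579) and *Qdpr* (0.14, adjusted p = 0.0328) were higher in replicates 4 to 6, which is 3 of 15 genes beside 14.0% of all genes called higher. They act in making or recycling the tetrahydrobiopterin cofactor, as do *Gch1* (-0.29, adjusted p = 0.0542) and *Pts* (-0.02, adjusted p = 0.811), which did not pass. *Qdpr* had the highest level of the list at 644 CPM on average.

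Among 28 genes of receptor signalling and partners, 0 of 28 passed between the sexes and 0 of 28 between the female groups. *Adcy1*, an adenylyl cyclase, had the smallest p between the sexes (0.23, unadjusted p = 0.00759, adjusted p = 0.328), and *Ric3*, a chaperone of the channel subunits, between the female groups (0.11, adjusted p = 1). Between the library series, 8 were lower in replicates 4 to 6, namely *Adarb1*, *Mpdz*, *Adcy9*, *Adar*, *Kcnj3*, *Plcb4*, *Plcb1* and *Gnaq*. They include *Adarb1* (log2 fold change -0.53, adjusted p = 7.97e-06) and *Adar*, enzymes that edit the *Htr2c* transcript. Also among them were *Mpdz* (-0.44, adjusted p = 9.57e-06), a scaffold that binds the *Htr2c* product, and *Gnaq* (-0.14, adjusted p = 0.0287), a Gq subunit. The 6 genes that were higher, with log2 fold changes of 0.13 to 0.25, were *Arrb2*, *Gnai2*, *Gnas*, *Gnaz*, *Deaf1* and *Gna11*, which like *Gnaq* encodes a Gq subunit. This compares with 27.0% of all genes called between the series.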

How the data were processed

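The authors deposited raw counts for 55573 Ensembl genes in 18 samples, not normalized, after Subread had mapped reads uniquely to mm10 and featureCounts had assigned them to exons. The submitters' notes give Subread 2.0.3, and whether the counting used the strand is not given in the sources used here. The labels name SMART-Seq amplification with Nextera XT tagmentation and the methods name TruSeq. A deposited DESeq2 table holds the authors' own comparison, and nothing but its gene symbols was used. Genes were placed with GENCODE vM21, which held 55480 of the IDs. *Deaf1* has 2 IDs, and the one listed first in the count table was used.

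Total counts were 73590509 to 125724156 per sample, and precision was taken from the spread between samples. Genes were filtered with filterByExpr (minimum count 10, minimum total 15), scaled with TMM and tested over all genes with the quasi-likelihood test of edgeR 4.0.16 (R 4.3.3) (FDR of 5%, Benjamini-Hochberg), which was tested on simulated data. CPM are counts scaled to a common library total after TMM, and levels between genes are CPM per kilobase of merged exons. Males were compared with all females in 18 samples, F2/metestrus with F1/proestrus in the 12 females, males with each female group in a fit of 3 groups, and replicates 4 to 6 with 1 to 3 with group as a covariate. Alternatives were DESeq2 1.42.0, other scaling and filters, robust dispersions, covariates for ganglion markers or library series, the replicate number as a block, each series alone, and leaving out each sample.

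The receptor genes, the other serotonin genes and the use of the library series were chosen with earlier results of these data known. By rule, all 9 receptor genes are described, together with genes of the other lists that passed or had the smallest p or highest level, and the genes most correlated with each receptor (log2 CPM, prior count 2). *Avil*, *Scn10a* and *Mrgprd* were named after their values had been seen. Differences of a comparison between series, and fits with the series as a covariate without F1/proestrus sample 5, were added after seeing the data.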

Additional observations from a re-analysis of the deposited data

Results flagged for a closer look

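Within the groups of 6 samples, the gap between the highest or lowest sample and its neighbour was set against the range of the group by Dixon's criterion for 27 combinations of receptor gene and group. There were 3 past its 95% limit, and chance gives about 1 in 20. *Htr3a* in F1/proestrus sample 5 was at 27.4 CPM with the next sample at 13.3 CPM (ratio of gap to range 0.725). *Htr1d* in the same sample was at 11.3 CPM with the next at 7.36 CPM (0.668). *Htr2a* in F1/proestrus sample 1 was at 22.5 CPM with the next at 17.7 CPM (0.690). Sample 5 also held 690 CPM of dorsal root ganglion markers. Their part in these values was not tested beyond leaving the sample out or using the ganglion score as covariate.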

How the results depend on the processing

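The calls of *Htr1b*, *Htr2a* and *Htr2c* between replicates 4 to 6 and 1 to 3 remained under all alternatives, and no receptor gene was gained by any. Of the values of the 9 genes, 298 kept direction and side of the threshold under other settings and 17 changed sign without a call, and 718 and 38 did when single samples were left out. Between the sexes the sign changed for *Htr1b* (0.030), *Htr3a* (0.18), *Htr4* (0.0021), *Htr5a* (0.15) and *Htr7* (-0.028) within replicates 1 to 3, for *Htr3a* (0.16) and *Htr4* (0.024) with the ganglion score as covariate, for *Htr3a* (0.14) and *Htr4* (0.018) with the series as covariate and sample 5 of F1/proestrus left out, and for *Htr7* with size factors in place of TMM (-0.0026) and in DESeq2 (-0.0021). Between the female groups it changed for *Htr3a* (0.14) and *Htr7* (-0.018) within replicates 1 to 3, and for *Htr3a* (0.011) with the series as covariate and sample 5 left out. Between the series it changed for *Htr4* without a filter (-0.0093), with at least 10 counts in every sample (-0.0050) and with the ganglion score (-0.027). The cause of these changes was not tested.

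With single samples left out, the sexes gave -0.11 to 0.14 for *Htr3a*, -0.054 to 0.016 for *Htr4*, -0.066 to 0.046 for *Htr5a* and -0.017 to 0.013 for *Htr7*, the female groups -0.45 to 0.018 for *Htr3a*, and the series -0.071 to 0.0060 for *Htr1a* and -0.037 to 0.036 for *Htr4*. Males against F1/proestrus gave -0.021 to 0.053 for *Htr1a*, -0.19 to 0.021 for *Htr1b*, -0.33 to 0.14 for *Htr3a* and -0.092 to 0.020 for *Htr5a*, and males against F2/metestrus -0.040 to 0.072 for *Htr5a*.

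Of all genes, 49 were called between the sexes, and 31 with at least 10 counts in every sample, 75 with the ganglion score, 158 in DESeq2, 134 with the series as covariate, 177 when sample 5 was also left out, 16 within replicates 1 to 3 and 13 within replicates 4 to 6. Leaving out single samples gave 25 (without male 5) to 77 (without F1/proestrus sample 5), and 30 without male 4. Between the female groups 0 were called by edgeR and 2 in DESeq2. Between the series, 2 other receptor genes were called and 1 without a filter on low counts, or 1 to 2 with single samples left out (1 without F1/proestrus 4, F2/metestrus 1, 2, 3, 4 or 6, or male 5), and the 3 called genes of synthesis, transport and breakdown became 2 to 5 (5 without F2/metestrus 5 or male 4). With the longest transcript *Htr2c* was at 10.8 and *Htr7* at 15.5 CPM per kilobase.

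With the replicate number as a block, 148 genes were called between the sexes. The 18 pairs of samples with the same number had correlations of -0.105 to 0.227, 9 pairs were over 0.1, and 7 of 18 samples correlated best with their own number, so the numbers were not taken to pair the samples, although numbers 1 to 3 and 4 to 6 also mark the library series. The block changed no call of a receptor gene.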
